A study of Mus musculus with 8 samples.

Results

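Steroid hormones are modified in the liver by a small set of dehydrogenases and reductases, and 9 of their genes were followed here in mouse liver. They were *Cyp17a1*, the 3β-hydroxysteroid dehydrogenase genes *Hsd3b2*, *Hsd3b3* and *Hsd3b5*, the 17β-hydroxysteroid dehydrogenase genes *Hsd17b2*, *Hsd17b6* and *Hsd17b11*, the 11β-hydroxysteroid dehydrogenase gene *Hsd11b1* and the 5α-reductase gene *Srd5a1*. The genes were chosen by symbol from 16540 rows of the count table, with the result of the comparison below already known. Their differences between the groups are therefore given as a description and without a test. All 9 of 9 genes passed the filter on low counts, which 12307 of 16540 genes passed.

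Liver RNA came from 4 vehicle-treated mice, called DMSO (the solvent) in the count table, and 4 mice treated with isoginkgetin (ISOGK), a biflavonoid of Ginkgo biloba. All 8 animals were male *Apoe*-/- mice, which lack apolipoprotein E and develop high plasma cholesterol and atherosclerosis, and all were fed a Western diet, described in the methods as a high-cholesterol diet. Once the diet had been given for 7 weeks, ISOGK was injected into the peritoneum, 20 mg/kg each day, over 8 weeks. Each library came from 1 mouse, and the age of the mice is not given in the sources used here. *Apoe* itself had 3252 to 6489 counts per library, so that the genotype rests on the labels.

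Dehydrogenases of this kind move hydrogen between a hydroxyl group of the steroid and a nicotinamide cofactor, and so switch a hormone between a more active and a less active form at a fixed carbon atom. In mouse liver several of these genes belong to the sexually dimorphic programme that the pulsatile growth hormone of males maintains, and *Hsd3b5* is a classical male-predominant gene. CYP17A1, a cytochrome P450 of the endoplasmic reticulum, performs the hydroxylation and side-chain cleavage that lead from progestins to androgens in adrenal gland and gonads. HSD11B1 regenerates active glucocorticoid from its inert keto form, and SRD5A1 reduces the A ring of testosterone and corticosterone.

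Between 17457106 and 24461854 reads per library were counted on genes. Values below are CPM, the counts of a gene per 1000000 counted reads of the library, scaled with the TMM factors of edgeR, and fold changes are log2 values, ISOGK over vehicle, with their standard error (SE) from edgeR's quasi-likelihood fit over all 12307 genes. Hepatocyte markers (6 of 6 measured) made up 142000 to 154000 CPM in vehicle-treated and 130000 to 168000 CPM in ISOGK-treated livers. Vehicle-treated mouse 4 stood apart in 10 of 10 skeletal muscle markers, which summed to 82.3 CPM there and to at most 0.589 CPM in any other library. In whole tissue, fewer cells of a type and less RNA per cell cannot be told apart.

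Of the 9 genes, 3 belong to the Hsd3b cluster, which spans 361 kb on the minus strand of chromosome 3 (GRCm38) and holds 7 protein-coding genes. In the order of the chromosome these are *Hsd3b4*, *Gm10681*, *Hsd3b5*, *Hsd3b2*, *Hsd3b3*, *Hsd3b6* and *Hsd3b1*. *Hsd3b5* lies at chr3:98618634-98630252, *Hsd3b2* at chr3:98709255-98724543 and *Hsd3b3* at chr3:98741523-98763127. Because these 3 genes were all lower with ISOGK, the 250 bases upstream of their RefSeq transcription starts (GRCm38.p6, minus strand, written 5′ to 3′) are shown. *Hsd3b3* has 2 RefSeq starts, 0.718 kb apart, and the upstream one is shown. The RefSeq start of *Hsd3b5* lies 15.3 kb upstream of the gene's GENCODE start. Capitals mark the single match to CAAAGTNCA, a letter pattern of the HNF4A type, on either strand.
*Hsd3b5*, chr3:98645535-98645784: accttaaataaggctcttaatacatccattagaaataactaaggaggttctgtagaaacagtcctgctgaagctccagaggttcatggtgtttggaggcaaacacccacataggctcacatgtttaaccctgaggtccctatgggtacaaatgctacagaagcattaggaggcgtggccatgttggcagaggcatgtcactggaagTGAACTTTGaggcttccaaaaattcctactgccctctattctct
*Hsd3b3*, chr3:98763129-98763378: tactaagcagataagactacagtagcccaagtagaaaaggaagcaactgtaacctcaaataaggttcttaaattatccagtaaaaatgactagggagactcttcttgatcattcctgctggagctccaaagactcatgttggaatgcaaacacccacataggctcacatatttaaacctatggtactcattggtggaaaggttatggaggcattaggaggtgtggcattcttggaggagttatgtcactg
*Hsd3b2*, chr3:98724544-98724793: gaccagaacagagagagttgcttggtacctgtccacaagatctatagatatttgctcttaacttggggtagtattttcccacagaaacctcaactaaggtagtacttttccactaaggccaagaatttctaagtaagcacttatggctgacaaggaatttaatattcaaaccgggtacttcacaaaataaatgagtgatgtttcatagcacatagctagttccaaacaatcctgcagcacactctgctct

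Over windows from 250 bases before to 50 bases after the start, *Hsd3b5* and the window of *Hsd3b3* shown above were 75.2% identical in 250 aligned columns. *Hsd3b2* was 54.6% identical to *Hsd3b5* and 50.5% to *Hsd3b3*, where pairs of an *Hsd3b4* window with that of another gene reached 46.3% to 52.3%. In both *Hsd3b3* windows the CAAAGTNCA match fell just downstream of the start, so that a stretch of 29 bases around it is shown, 10 bases on each side.
*Hsd3b5*, chr3:98645560-98645588, bases -44 to -36: tcactggaagTGAACTTTGaggcttccaa
*Hsd3b3*, chr3:98763106-98763134, bases 5 to 13: tcactgaaagTGGACTTTGaagcttccag
*Hsd3b3*, second start, chr3:98762389-98762417, bases 4 to 12: tcactggaagTGGACTTTGaagcttccag
Positions count from the RefSeq start and mark the capitals. The pattern was searched after these sequences had been read, and it occurred in 1.41% of 32851 mouse promoter windows of 300 bases. Among the 7 of 9 genes matched by symbol to a promoter window, 2 held it. Matches to TTCNNNGAA (STAT5 type, in 8.3% of windows) and CAAGGTCA (LRH-1 type, 1.56%), searched on both strands, were not found in these 7 genes. A match describes letters in a window and not a site that a factor was seen to bind.

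*Hsd3b3*, per length the most abundant transcript of the cluster, was 3.75-fold lower with ISOGK. The vehicle-treated mice had 218, 243, 195 and 186 CPM (mean 210.4 ± 25.6, SD, n = 4). The ISOGK-treated mice had 91.0, 61.6, 49.1 and 22.6 CPM (56.1 ± 28.4, n = 4). The groups did not overlap, and the log2 fold change was -1.91 (SE 0.37), with counts of 4164 to 6144 against 432 to 1855 per library. Among the treated animals, mouse 1 kept the highest level and mouse 4 the lowest, a 4.02-fold range where the vehicle-treated animals spanned 1.31-fold.

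*Hsd3b5*, whose product works mainly as a reductase of steroid 3-ketones, had the lowest log2 fold change of the 9 genes. It measured 79.5, 51.4, 83.5 and 70.9 CPM in the vehicle-treated mice (71.4 ± 14.3, n = 4). ISOGK-treated mouse 1 had 38.7 CPM, while mice 2, 3 and 4 had 12.7, 11.2 and 6.60 CPM (17.3 ± 14.5, n = 4). The log2 fold change was -2.04 (SE 0.54), a 4.12-fold lower mean without overlap of the groups, and without ISOGK-treated mouse 1 it was -2.81 (SE 0.25). The spread was also the widest of the 9 genes, with a coefficient of variation of 83.8% in the ISOGK group against 20.0% in the vehicle group.

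*Hsd3b2*, per length the least abundant of the 3, measured 17.3, 18.9, 22.9 and 19.1 CPM with vehicle (19.6 ± 2.40, n = 4). With ISOGK it measured 8.58, 7.86, 5.37 and 2.99 CPM (6.20 ± 2.55, n = 4), again below every vehicle-treated mouse. The log2 fold change was -1.65 (SE 0.26), a 3.15-fold lower mean. The order of the 4 treated mice was the same for *Hsd3b2*, *Hsd3b3* and *Hsd3b5*, from mouse 1 as the highest to mouse 4 as the lowest. Relative to the vehicle mean, mouse 4 stood at -2.67, -3.20 and -3.39 on the log2 scale for these genes, and mouse 1 at -1.17, -1.20 and -0.86. The order of the vehicle-treated mice differed between the 3 genes.

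**Figure D1:**
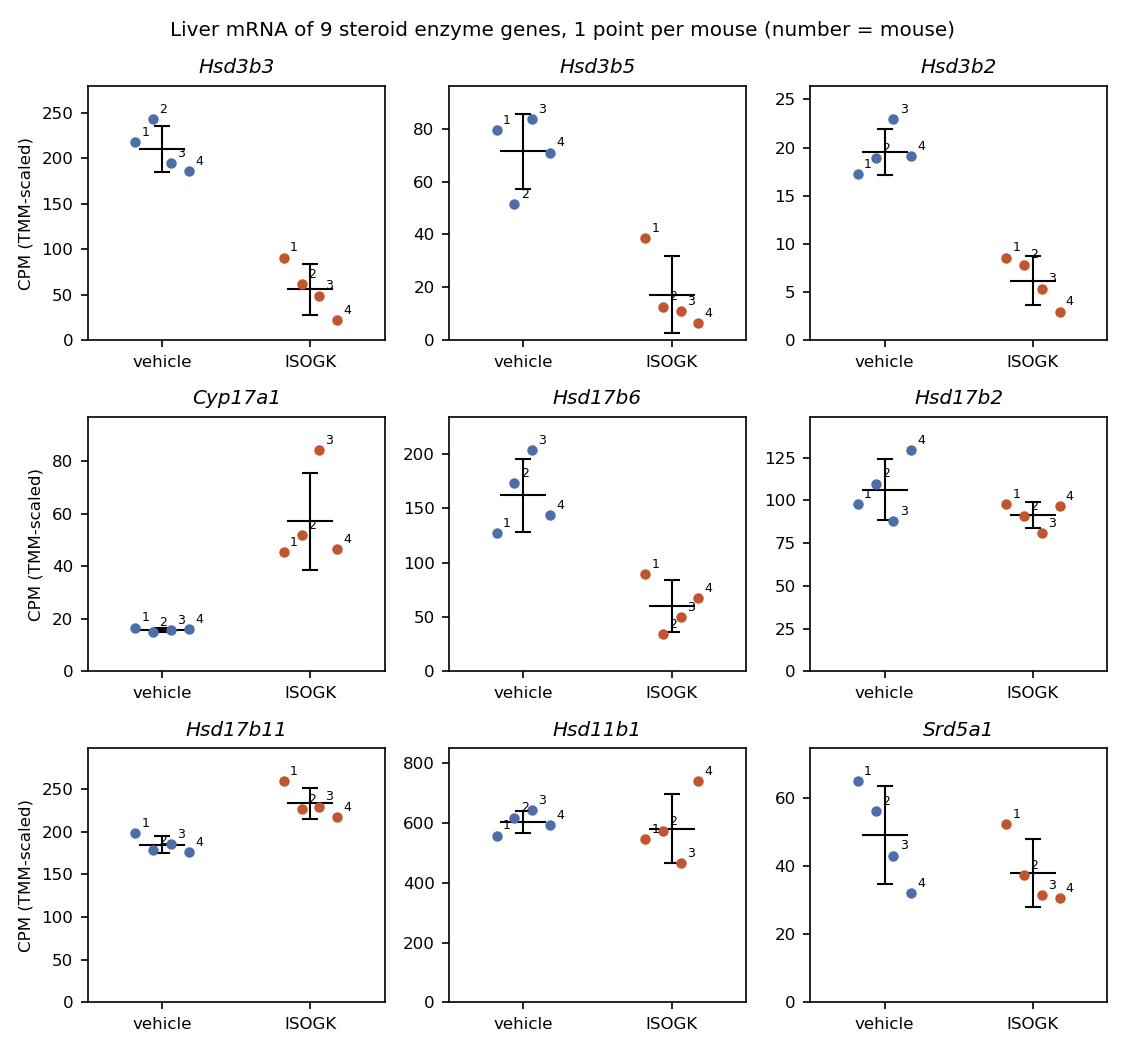
Liver CPM (TMM-scaled, linear axes starting at 0) of the 9 genes, 1 point per mouse with its number, for 4 vehicle-treated (blue) and 4 ISOGK-treated (orange) mice; horizontal bars give the mean and whiskers the SD. The groups are separate for *Hsd3b3*, *Hsd3b5*, *Hsd3b2*, *Cyp17a1*, *Hsd17b6* and *Hsd17b11*, and overlap for *Hsd17b2*, *Hsd11b1* and *Srd5a1*.

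The counts of *Hsd3b2* and *Hsd3b3* cannot be taken as fully separate. Their longest protein-coding transcripts were 91.1% identical over 1550 aligned columns, and 27.2% of the 50-base windows of *Hsd3b3* also occur in *Hsd3b2*, so that a short single-end read from there could have been assigned to either. *Hsd3b5* shared 0% of such windows with *Hsd3b3* and with *Hsd3b2*, at identities of 73.7% and 73.9%. Its close copy is *Hsd3b4* (92.6% identical, 18.2% of the windows of *Hsd3b5*), which, like *Gm10681*, was not analysed here. *Hsd3b6*, at most 3 counts per library, and *Hsd3b1*, at most 2, were too low to be tested. When the 5 measured rows of the cluster were summed, the libraries held 6185 to 7922 reads with vehicle and 618 to 2821 with ISOGK, and the log2 fold change was -1.92 (SE 0.38). The transcript-to-transcript ratio of *Hsd3b3* to *Hsd3b2* in CPM overlapped between the groups (8.50 to 12.8 with vehicle, 7.58 to 10.6 with ISOGK), as did that of *Hsd3b3* to *Hsd3b5* (2.33 to 4.73 and 2.35 to 4.85). Exons of *Zfp697* overlap *Hsd3b2* and *Hsd3b3* on the opposite strand, and whether the counting used strand is not stated.

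**Figure D2:**
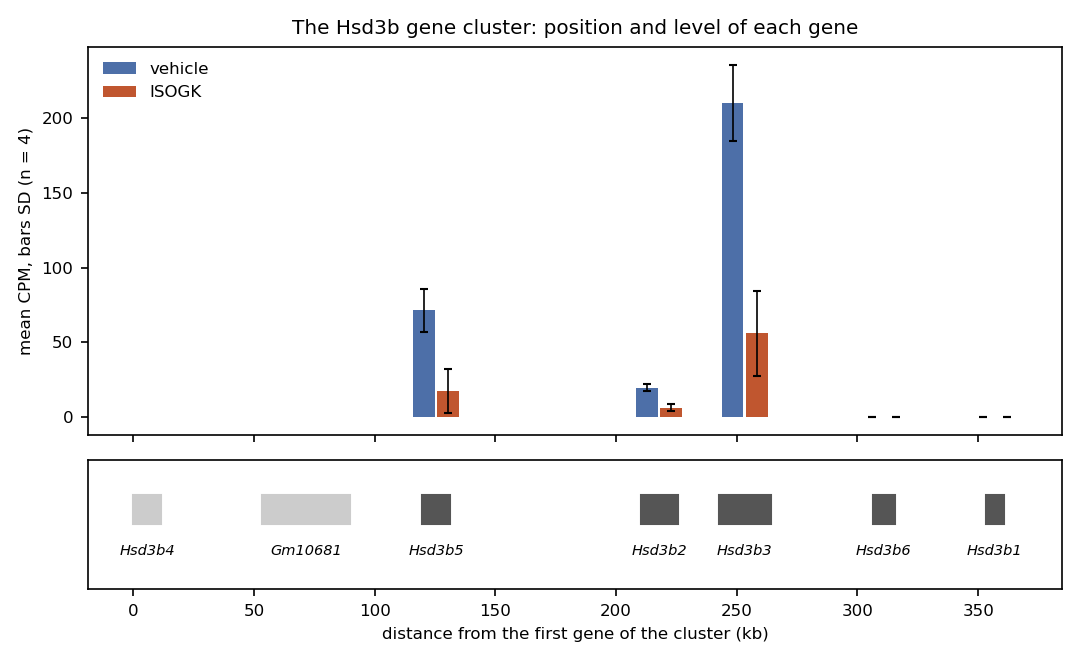
Mean CPM with SD whiskers (n = 4 mice per group, axis from 0) of the 5 measured genes of the Hsd3b cluster, drawn above their positions as distance in kb from the first gene; genes in light grey were not analysed here. *Hsd3b5*, *Hsd3b2* and *Hsd3b3* are lower with ISOGK (orange) than with vehicle (blue), and *Hsd3b6* and *Hsd3b1* lie near 0 in both groups.

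Of 7 other listed genes of the 3β-hydroxysteroid dehydrogenase family, *Hsd3b1* and *Hsd3b6* included, 2 were tested, with 0 higher and 1 lower. Both lie outside the cluster. This list and those below were chosen with earlier results of these data known. At an edgeR adjusted p under 0.05, 4.11% of all tested genes were higher and 3.44% lower. *Nsdhl*, which acts in cholesterol synthesis, measured 10.7 to 20.8 CPM with vehicle and 5.03 to 10.3 CPM with ISOGK, a log2 fold change of -0.98 (SE 0.26, edgeR adjusted p = 0.0492). That call was lost when vehicle-treated mouse 1, 2 or 4 or any of the ISOGK-treated mice was left out (adjusted p = 0.0522 to 0.132). It was also lost in edgeR with the size factors of DESeq2, with no filter beyond 1 count (0.0643) and with the replicate number as a block. *Hsd3b7*, of the bile acid pathway, had a mean of 236 CPM with vehicle and 238 CPM with ISOGK.

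*Cyp17a1* (chr19:46667165-46673172, minus strand) had the highest log2 fold change of the 9 genes, opposite in direction to the Hsd3b genes. The vehicle-treated mice lay close together at 16.7, 14.8, 15.7 and 16.0 CPM (15.8 ± 0.761, n = 4), a coefficient of variation of 4.82%. The ISOGK-treated mice had 45.5, 52.0, 84.2 and 46.7 CPM (57.1 ± 18.3, n = 4), all above the vehicle group. The log2 fold change was 1.85 (SE 0.18), a 3.61-fold higher mean, with 332 to 403 counts against 891 to 1490 per library. Mouse 3 stood above the other treated mice, and without it the log2 fold change was 1.60.

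The ratio of *Hsd3b3* to *Cyp17a1* CPM joined both directions within each liver. It was 13.1, 16.4, 12.4 and 11.6 in vehicle-treated mice. In ISOGK-treated mice it was 2.00, 1.19, 0.583 and 0.485, with no overlap between the groups. A ratio of this kind is of reads within a library, so it does not depend on how libraries were scaled, and it is not corrected for length.

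The steroid-making context of *Cyp17a1* was scarce in these livers. *Cyp11a1*, which cleaves the cholesterol side chain at the start of steroid synthesis, had at most 4 counts in any library and was not tested. *Star*, which carries cholesterol into mitochondria, measured 1.71 ± 0.291 CPM with vehicle and 1.37 ± 0.138 CPM with ISOGK (n = 4 per group, log2 fold change -0.32, edgeR adjusted p = 0.412). *Cyp21a1*, the steroid 21-hydroxylase, measured 0.628 ± 0.284 and 0.537 ± 0.0567 CPM (log2 fold change -0.21, adjusted p = 0.783). *Nr5a1*, which defines adrenal cortex and Leydig cells, had at most 2 counts per library, and *Insl3* of Leydig cells at most 6. The adrenal list (5 of 8 genes measured) summed to 22.9 to 29.0 CPM with vehicle and 34.6 to 60.5 CPM with ISOGK. *Mrap*, which liver and fat also express, made up 513 to 1105 of its 577 to 1146 counts. The Leydig list (5 of 7 genes) summed to 1.46 to 2.46 CPM with vehicle and 1.57 to 1.85 CPM with ISOGK.

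Cytochrome P450 enzymes of this kind take electrons from the reductase POR, and cytochrome b5 favours the lyase step of CYP17A1. *Por* measured 529 ± 29.7 CPM with vehicle and 497 ± 83.8 CPM with ISOGK (n = 4 per group, log2 fold change -0.09, SE 0.12, edgeR adjusted p = 0.699). *Cyb5a*, the microsomal cytochrome b5, measured 523 ± 29.1 and 572 ± 68.5 CPM (log2 fold change 0.13, SE 0.11, adjusted p = 0.501). *Cyb5b*, the mitochondrial outer membrane form, was downregulated from 263 ± 23.2 to 159 ± 11.7 CPM, without overlap (log2 fold change -0.73, SE 0.10, adjusted p = 0.00178). It was the only call among the 10 tested genes of steroid synthesis and electron supply, of which 0 were higher, and 1 was lower. With library size alone 3 were lower, and without ISOGK-treated mouse 3 there was 1 higher.

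*Hsd17b6* (chr10:127990936-128007611, minus strand), whose product oxidises androstanediol back to dihydrotestosterone, was 2.69-fold lower with ISOGK. The vehicle-treated mice had 127, 173, 203 and 144 CPM (162 ± 33.5, n = 4). The ISOGK-treated mice had 89.7, 34.1, 49.6 and 67.3 CPM (60.2 ± 23.9, n = 4), all below the vehicle group. The log2 fold change was -1.43 (SE 0.28). Here mouse 2 and not mouse 4 was the lowest of the treated animals, so the order differed from that of the Hsd3b genes.

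*Hsd17b11* (chr5:103989762-104021919, minus strand) encodes a short-chain dehydrogenase found on lipid droplets that also accepts androstanediol. It measured 199, 179, 186 and 177 CPM with vehicle (185 ± 9.95, n = 4) and 259, 227, 230 and 217 CPM with ISOGK (233 ± 18.1, n = 4). All treated mice lay above all vehicle-treated mice, at a log2 fold change of 0.34 (SE 0.09). Scaled by library size alone it was 0.21, a setting that lowered the median log2 fold change of all genes by 0.132. Its neighbour *Hsd17b13*, another lipid droplet protein, named here for its position, measured 336 ± 6.16 and 412 ± 38.2 CPM (log2 fold change 0.29, SE 0.09, edgeR adjusted p = 0.0769).

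*Hsd17b2* (chr8:117701904-117759027, plus strand), which inactivates testosterone and oestradiol by oxidation, differed little. It had 97.9, 109.8, 88.0 and 129 CPM with vehicle (106 ± 17.8, n = 4) and 97.8, 90.8, 81.0 and 96.7 CPM with ISOGK (91.5 ± 7.68, n = 4). The groups overlapped, and the log2 fold change was -0.22 (SE 0.12). The ratio of *Hsd17b6* to *Hsd17b2* CPM was 1.11 to 2.31 with vehicle and 0.376 to 0.917 with ISOGK, without overlap.

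The rest of the 17β-hydroxysteroid dehydrogenase family showed 4 higher and 0 lower among 10 tested genes, against 4.11% and 3.44% of all tested genes. The median log2 fold change was 0.36, against 0.0018 over all genes. *Hsdl2*, a peroxisomal protein, was upregulated from 87.0 ± 15 to 191 ± 16.4 CPM (n = 4 per group, log2 fold change 1.14, SE 0.13, edgeR adjusted p = 0.000738). *Hsd17b10*, a mitochondrial enzyme of isoleucine and fatty acid breakdown, went from 103 ± 7.90 to 212 ± 37.9 CPM (log2 fold change 1.05, SE 0.13, adjusted p = 0.00121). *Hsd17b7*, which reduces a keto group in cholesterol synthesis, went from 25.9 ± 2.06 to 48.5 ± 12.3 CPM (log2 fold change 0.90, SE 0.15, adjusted p = 0.00503). *Hsd17b4*, the peroxisomal multifunctional enzyme of fatty acid β-oxidation, had a log2 fold change of 0.47 (SE 0.09, adjusted p = 0.00927). Each of these 4 genes kept its call in every fit that left out 1 mouse. *Hsd17b12*, of long-chain fatty acid elongation, had a log2 fold change of -0.04 (adjusted p = 0.823). With library size alone the counts were 4 higher and 1 lower, and with DESeq2 they were 5 higher and 1 lower.

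*Hsd11b1* (chr1:193221634-193264075, minus strand) was per length the most abundant of the 9 genes and the one with the smallest difference. It had 557, 617, 642 and 592 CPM with vehicle (602 ± 36.2, n = 4) and 546, 571, 464 and 739 CPM with ISOGK (580.1 ± 115, n = 4). The treated mice held both the lowest and the highest value, and the log2 fold change was -0.05 (SE 0.13). Leaving out mice or changing the scaling moved it between -0.20 and 0.03.

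The reductase direction of HSD11B1 depends on NADPH that H6PD supplies inside the endoplasmic reticulum. *H6pd* was upregulated from 580.2 ± 30.5 to 797 ± 67.2 CPM without overlap (n = 4 per group, log2 fold change 0.46, SE 0.10, edgeR adjusted p = 0.0158). The call was lost without vehicle-treated mouse 1 (log2 fold change 0.44, adjusted p = 0.0522) or mouse 3 (0.44, adjusted p = 0.0548), and with library size alone (0.33, adjusted p = 0.0649). *Hsd11b2*, the opposing oxidase, was not analysed here. *Serpina6*, the plasma carrier of corticosterone, was downregulated from 158 ± 40.7 to 50.9 ± 3.12 CPM (log2 fold change -1.64, SE 0.17, adjusted p = 0.000689). *Nr3c1*, the glucocorticoid receptor, named after its value was seen, had a log2 fold change of -0.41 (SE 0.11, adjusted p = 0.0376). The latter call was lost without vehicle-treated mouse 1, 2 or 3 or ISOGK-treated mouse 1, 2 or 4 (adjusted p = 0.0572 to 0.121). It was also lost with the replicate number as a block.

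Genes known to be induced by glucocorticoids did not pass the edgeR test in either direction. Of 15 tested genes, 0 were called, 2 had an unadjusted p under 0.05, both higher, and DESeq2 called 2 higher and 0 lower. The median log2 fold change was 0.12, and with library size alone it was 0.01. Of the 15 genes, 12 had a log2 fold change above 0 and 3 below 0. The 3 were *Fkbp5* (-0.85, edgeR adjusted p = 0.247), *Tsc22d3* (-0.31, adjusted p = 0.537) and *Klf9* (-0.28, adjusted p = 0.384).

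*Srd5a1* (chr13:69573449-69611442, minus strand) varied more within the vehicle group than any other member. It measured 64.9, 56.1, 43.1 and 32.2 CPM with vehicle (49.1 ± 14.4, n = 4) and 52.4, 37.4, 31.4 and 30.7 CPM with ISOGK (38.0 ± 10.1, n = 4). The groups overlapped, and the log2 fold change was -0.37 (SE 0.24). The non-coding gene *Gm17108* overlaps *Srd5a1* on the same strand, so its reads could not be separated.

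Of 9 tested genes of other enzymes that reduce the A ring or a keto group of steroids, 4 were lower and 0 higher. Over all tested genes these shares were 3.44% and 4.11%. The median log2 fold change of the list was -0.76. The median was -0.88 with library size alone and -0.48 over the 8 genes with at least 10 counts in every library. It was -0.28 with DESeq2 (1 gene above 0 and 10 below) and -0.25 over 11 genes with no filter beyond 1 count. Both of the latter medians included genes with too few counts for the main test, so the gene sets differ. Without vehicle-treated mouse 1 or 2, 1 gene was lower. With vehicle-treated mouse 3 or 4 or ISOGK-treated mouse 2 left out, 2 were lower. *Akr1c20*, an aldo-keto reductase of hydroxysteroids, was downregulated from 50.1 ± 4.89 to 27.3 ± 4.49 CPM (n = 4 per group, log2 fold change -0.88, SE 0.12, edgeR adjusted p = 0.00178). *Akr1d1*, the 5β-reductase of bile acid and steroid metabolism, went from 115 ± 27.6 to 59.1 ± 15.8 CPM (log2 fold change -0.96, SE 0.22, adjusted p = 0.0322). *Akr1c14*, a 3α-hydroxysteroid dehydrogenase, had a log2 fold change of -0.76 (SE 0.17, adjusted p = 0.0219), and *Akr1c6*, which has 17β-hydroxysteroid dehydrogenase activity, of -0.78 (SE 0.18, adjusted p = 0.0298). *Srd5a2*, at 1.17 ± 0.299 and 0.591 ± 0.124 CPM, did not overlap between groups (log2 fold change -0.97, SE 0.30, adjusted p = 0.074). The call of *Akr1c20* held in every fit that left out a mouse. That of *Akr1d1* was lost without vehicle-treated mouse 1, 2 or 4 or ISOGK-treated mouse 1 (adjusted p = 0.0522 to 0.0691). The call of *Akr1c14* was lost without vehicle-treated mouse 1, 2 or 3 or ISOGK-treated mouse 2 (0.0539 to 0.0691). *Akr1c6* lost its call without any of the vehicle-treated mice or ISOGK-treated mouse 2 or 3 (0.0605 to 0.0853). The Akr1c genes are close copies, among which reads could have been divided.

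Across the 9 genes, 2 had a higher and 7 a lower mean with ISOGK. The levels of 6 genes did not overlap between the groups, where 15.3% of all tested genes did not. At an edgeR adjusted p under 0.05, 5 of the 9 were called against 7.55% of all tested genes. Of these, 2 were higher, against 4.11% of all genes, and 3 were lower, against 3.44%. With an absolute log2 fold change over 1 there were 4, against 1.63%, of which 1 was higher, against 0.999%, and 3 were lower, against 0.626%. Since the genes were picked on this contrast, nothing is read from these counts. *Hsd3b5*, *Hsd17b2*, *Hsd11b1* and *Srd5a1* were not called, although *Hsd3b5* was by DESeq2 and, in edgeR, without ISOGK-treated mouse 1. *Cyp17a1* and *Hsd3b2* were called in every fit that left out a mouse, and *Hsd3b3* and *Hsd17b6* in some of them. Over 14 alternatives, *Hsd3b3* was called in 8 and *Hsd17b6* in 10. The 8 included every alternative that kept all mice, so most fits that left out a mouse lost the *Hsd3b3* call. *Hsd17b11* lost its call whichever mouse was left out, and was called in 3 of 14 alternatives.

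**Figure D3:**
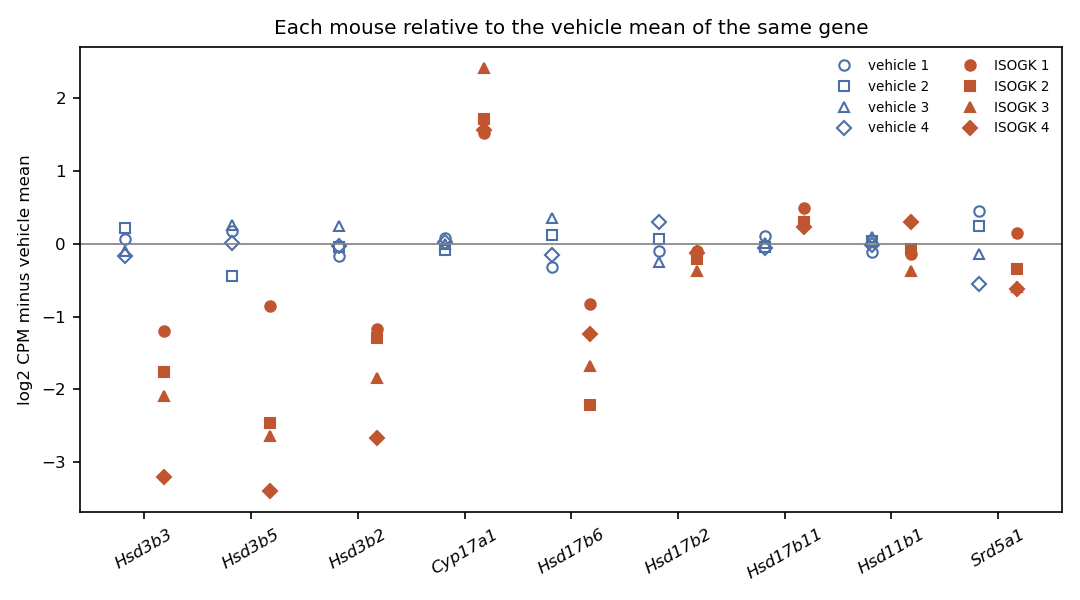
Difference of each mouse from the vehicle mean of the same gene, in log2 CPM, for the 9 genes; open blue symbols are the 4 vehicle-treated and filled orange symbols the 4 ISOGK-treated mice, with 1 symbol shape per mouse number. *Hsd3b3*, *Hsd3b5* and *Hsd3b2* share the order of the treated mice, with mouse 4 lowest at -3.20, -3.39 and -2.67, and *Cyp17a1* is the only gene that lies more than 1 above 0 in all treated mice.

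Compared per length, with CPM divided by the kilobases of the longest protein-coding transcript, the levels with vehicle ran from *Hsd11b1* (371 CPM per kb) over *Hsd3b3* (137), *Hsd17b6* (106), *Hsd17b11* (82.8), *Hsd17b2* (80.5), *Hsd3b5* (46.1) and *Srd5a1* (18.6) to *Cyp17a1* (6.58) and *Hsd3b2* (5.29). Neighbours whose ranges over the 4 vehicle-treated mice overlapped were *Hsd3b3* with *Hsd17b6*, *Hsd17b6* with *Hsd17b11*, *Hsd17b11* with *Hsd17b2*, and *Cyp17a1* with *Hsd3b2*. With ISOGK, *Hsd11b1* was still the highest at 357 CPM per kb, followed by *Hsd17b11* (104.5), *Hsd17b2* (69.4), *Hsd17b6* (39.6), *Hsd3b3* (36.6), *Cyp17a1* (23.8), *Srd5a1* (14.4), *Hsd3b5* (11.2) and *Hsd3b2* (1.68). Ranges over the ISOGK-treated mice overlapped between *Hsd17b6* and *Hsd3b3*, *Hsd3b3* and *Cyp17a1*, *Cyp17a1* and *Srd5a1*, and *Srd5a1* and *Hsd3b5*, so that the places from *Hsd17b6* to *Hsd3b5* were not distinct. *Cyp17a1* passed from a level under that of *Hsd3b5* in every vehicle-treated mouse to a mean above it. With the median length of the coding transcripts, *Hsd17b6* (158.9) stood above *Hsd3b3* (145.8) and *Hsd3b2* (10.9) above *Cyp17a1* (7.49) in the vehicle group.

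Genes of steroid clearance changed in both directions. Of 18 tested genes of sulfation and glucuronidation, 4 were higher, all from the Ugt2b family of close copies, and 0 were lower. Over all tested genes 4.11% were higher and 3.44% lower. Of the 18, 8 had a log2 fold change above 0 and 10 below 0, with a median of -0.10. *Ugt2b35* had a log2 fold change of 0.78 (SE 0.12, edgeR adjusted p = 0.00288), *Ugt2b38* of 0.68 (SE 0.12, adjusted p = 0.00651) and *Ugt2b37* of 2.14 (SE 0.42, adjusted p = 0.0114), the last from 0.274 to 1.24 CPM. Among 13 tested genes of steroid hydroxylation, 2 were higher and 5 lower. *Cyp2b9* was at 9.97 to 19.3 CPM with vehicle and 0.245 to 2.26 CPM with ISOGK (log2 fold change -4.07, SE 0.51, adjusted p = 0.00322). *Cyp2c29* had a log2 fold change of -0.68 (SE 0.13, adjusted p = 0.009) and *Cyp1a2* of -0.48 (SE 0.09, adjusted p = 0.0101). These 6 calls held when any mouse was left out. The fourth Ugt2b gene and the other 4 hydroxylases did not hold theirs in every such fit, and the hydroxylation list had 0 to 2 higher and 3 to 4 lower genes over these fits.

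Receptors that read these hormones were examined as well. *Esr1*, the oestrogen receptor α, went from 9.48 ± 1.67 to 15.6 ± 3.25 CPM (n = 4 per group, log2 fold change 0.72, SE 0.17, edgeR adjusted p = 0.0281). Its call was lost without vehicle-treated mouse 1, 2 or 3 or ISOGK-treated mouse 2 or 4 (adjusted p = 0.0599 to 0.0835) and with library size alone (0.0546).

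**Figure D4:**
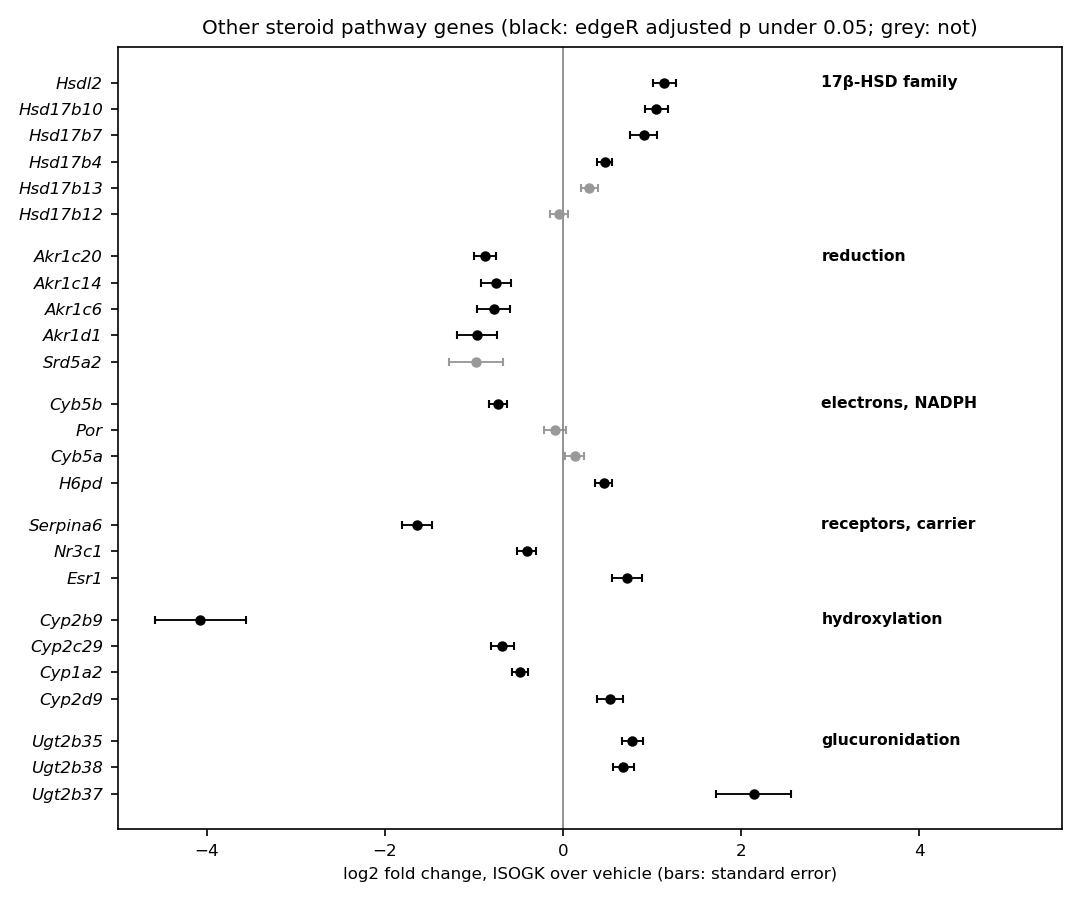
Log2 fold change (ISOGK over vehicle, 4 mice per group) with SE bars of steroid pathway genes outside the 9, grouped by role; black marks an edgeR adjusted p under 0.05 over all 12307 genes tested and grey a higher one. Of the 17β-HSD family 4 genes are above 0 in black, and the 4 black genes of reduction lie below 0, between -0.96 and -0.76.

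*Hsd3b5* is known as a male-biased liver gene, and other sex-biased genes were examined beside it. Of 12 tested male-biased genes, 3 were higher and 0 lower, and 11 had a log2 fold change above 0 (median 0.59, and 0.45 with library size alone). They were *Ugt2b38*, given above, *Gstp1* (log2 fold change 0.57, SE 0.14, edgeR adjusted p = 0.0316) and *Cyp2d9* (0.53, SE 0.15, adjusted p = 0.0494). The *Gstp1* call was lost without any of the vehicle-treated mice or ISOGK-treated mouse 1 or 2 (adjusted p = 0.0522 to 0.0911) and with library size alone (0.0512). The *Cyp2d9* call was lost without any mouse except ISOGK-treated mouse 3 (adjusted p = 0.0774 to 0.135). In edgeR it was also lost with library size alone (0.109), with the size factors of DESeq2 (0.0502) and with the replicate number as a block. DESeq2 called 9 of the male-biased genes higher and 1 lower, and leaving out each mouse in turn gave 1 to 8 higher. The 8 came without ISOGK-treated mouse 3, while 1 was higher without vehicle-treated mouse 2, 3 or 4 or ISOGK-treated mouse 1 or 2, and 2 without ISOGK-treated mouse 4. Of 10 tested female-biased genes, 0 were higher and 1 lower (*Cyp2b9*), with a median of -0.41. DESeq2 called 3 lower, library size alone 3, and edgeR 3 without ISOGK-treated mouse 3 and 2 without vehicle-treated mouse 3, while the median ran from -0.65 to -0.29 over the fits that left out a mouse. The log2 fold change of *Hsd3b5*, -2.04, thus had the opposite sign to the median of the male-biased list.

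Among 18 tested regulators of such genes, 1 was higher and 1 lower. *Ghr*, the growth hormone receptor, was downregulated from 222 ± 12.9 to 162 ± 16.3 CPM (n = 4 per group, log2 fold change -0.45, SE 0.10, edgeR adjusted p = 0.0181), a call lost without vehicle-treated mouse 1, 2 or 4 (adjusted p = 0.0511 to 0.0676). *Nr1i3*, the xenobiotic receptor CAR, had a log2 fold change of 0.45 (SE 0.12, adjusted p = 0.0415). Its call was lost without any of the vehicle-treated mice or ISOGK-treated mouse 3 or 4 (adjusted p = 0.0553 to 0.125) and with library size alone (0.153). Over all lists together, 14 genes were higher and 15 lower of 117 tested, against 4.11% and 3.44% of all tested genes. The lists were chosen with earlier results of these data known, so nothing is read from these counts. The calls of 14 of these 29 genes held in each of the 8 fits that left out a mouse. Without vehicle-treated mouse 4, the library with muscle transcripts, the A-ring and keto reduction list had 2 lower genes and the 17β-hydroxysteroid dehydrogenase list 4 higher.

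The profiles most like those of *Cyp17a1* and *Hsd3b5* over the 8 mice were taken from 11459 genes with a mean of at least 1 CPM. Likeness was the mean absolute difference in log2 CPM relative to the vehicle mean. For *Cyp17a1* they were *Cyp4a14* (0.235), a fatty acid ω-hydroxylase, *Pdk4* (0.271), the kinase that turns off pyruvate dehydrogenase, and *Esrrg* (0.272), an orphan nuclear receptor. *Cyp4a14* measured 1019 to 1423 CPM with vehicle and 4847 to 6456 CPM with ISOGK. Its highest value was that of ISOGK-treated mouse 3, the mouse highest for *Cyp17a1*. *Pdk4* was highest in ISOGK-treated mouse 4 (49.3 CPM) and *Esrrg* in ISOGK-treated mouse 2 (3.11 CPM). For *Hsd3b5* the nearest were *Keg1* (0.362), an acyltransferase gene, *Upp2* (0.363), a uridine phosphorylase, and *Prok1* (0.438), a secreted peptide. *Upp2* had 122.7, 63.0, 35.9 and 11.9 CPM in the ISOGK-treated mice against 200.2 to 242 CPM with vehicle, in the order of mice seen for *Hsd3b5*. *Keg1* (44.8, 26.3, 40.7 and 15.7 CPM) and *Prok1* (0.638, 0.264, 0.452 and 0.262 CPM) did not follow that order, with ISOGK-treated mouse 3 above mouse 2. Within the 9 genes, the closest profile to *Hsd3b5* was that of *Hsd3b3* (0.388), and the closest to *Hsd3b3* was *Hsd3b2* (0.282). *Cyp17a1* lay nearest to *Hsd17b11*, at 0.755.

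Marker lists of other liver cells moved in part with treatment, and their part in the results above was not tested. The Kupffer cell and macrophage list (6 of 6 genes) summed to 404 to 573 CPM with vehicle and 252 to 438 CPM with ISOGK. The stellate cell list (6 of 6) summed to 100 to 155 and 61.0 to 143 CPM, the sinusoidal endothelial list (6 of 6) to 298 to 341 and 290 to 336 CPM, and the cholangiocyte list (6 of 6) to 27.6 to 34.8 and 28.3 to 69.2 CPM. Of the adipocyte list, 2 of 6 genes were measured and summed to 660 to 1060 CPM with vehicle and 89.0 to 238 CPM with ISOGK, nearly all from *Car3*, which hepatocytes also express. The log2 fold changes of *Cyp17a1*, *Hsd3b2*, *Hsd3b3*, *Hsd3b5* and *Hsd17b6* kept their sign and stayed between -2.81 and -1.23, or for *Cyp17a1* between 1.60 and 1.95, under all alternatives, the fit without the library holding muscle transcripts included.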

How the data were processed

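Liver RNA of 4 vehicle-treated and 4 ISOGK-treated mice was extracted with an RNeasy kit, and libraries were made with a SMARTER mRNA-Seq kit. The authors aligned single-end Illumina reads with HISAT2 and counted them per gene with StringTie; the submitters' processing notes name the build mm10. Which Ensembl release was used, and whether strand was, is not given in the sources used here. The deposited table holds raw counts for 16540 gene symbols, without normalization. The authors normalized with DESeq2, and those values were not used. Groups and mouse numbers came from the sample labels.

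From the counts, genes were filtered with filterByExpr (minimum count 10, minimum total 15), scaled with TMM and compared over all 8 libraries in edgeR 4.0.16 under R 4.3.3 (quasi-likelihood test with robust dispersions). Benjamini-Hochberg adjustment ran over all 12307 genes tested, and calls required an adjusted p under 0.05. Profiles used log2 CPM with a prior count of 2. The common biological coefficient of variation was 0.164, and 1 count equalled 0.0389 to 0.0565 CPM. Pairs of libraries within a group differed by a chi-square of 14.6 to 77.9 per gene, more than sampling noise. On simulated counts, edgeR called 97 of 105 genes changed 2-fold and 92 of 92 changed 4-fold, with 8 false calls among 12209 genes. The simulation gave every gene, in both groups, the common coefficient of variation of 0.164. It therefore does not show how often genes with a wider spread would be called.

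The 9 genes and all gene lists were chosen with earlier results of these data known. Named besides the 9 were the called genes, at most 3 a list, of lowest adjusted p, fixed partners by role, and the 3 nearest profiles of the 2 extreme genes; *Hsd17b4*, *Hsd17b12*, *Hsd17b13*, *Hsd3b7*, *Nr3c1*, *Mrap* and *Car3* were added after their values were seen. A gene under this rule is not reported here. The comparison was repeated with DESeq2 1.42.0 (Wald test), in edgeR with the size factors of DESeq2 or scaled by library size alone, unfiltered beyond 1 count, at 10 or more counts in every library, with a replicate block, with the Hsd3b rows summed, at a prior count of 0.5 and without each mouse in turn. Positions and transcripts are from GENCODE M21 (GRCm38, the same assembly as mm10), promoter windows from RefSeq (GRCm38.p6), and sequences were aligned with Biopython 1.88.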

Additional observations from a re-analysis of the deposited data

Results flagged for a closer look

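Within groups of 4 mice, a value was set apart when its gap to the nearest other mouse, divided by the range of the group, exceeded Dixon's critical value of 0.829. Over 84 groups of values, chance gives about 4.2 such cases and 5 were found. *Cyp17a1* in ISOGK-treated mouse 3, at 84.2 CPM against 45.5 to 52.0 CPM in the other treated mice, had a quotient of 0.833. *H6pd* in ISOGK-treated mouse 1, at 696 CPM against 824 to 840 CPM, had 0.893. *Hsd17b7* in ISOGK-treated mouse 2 (66.8 against 40.6 to 44.4 CPM) had 0.854, and *Akr1c20* in the same mouse (33.9 against 24.1 to 25.6 CPM) had 0.846. *Hsd17b4* in ISOGK-treated mouse 3, at 545 against 536 to 537 CPM, had 0.872.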

How the results depend on the processing

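The log2 differences of the 9 genes did not change by more than the spread between mice under any alternative, except that of *Hsd17b11*, which was 0.21 with library size alone, and only *Hsd11b1* crossed 0 (-0.20 to 0.03). Library size alone moved the median of all genes by -0.132 and the share of higher genes among the calls from 54.5% to 24.6%, with 262 higher and 804 lower genes, 120 of them with a log2 fold change under -1. DESeq2 called 744 genes higher and 661 lower. The replicate block gave 7 higher and 1 lower male-biased gene. Leaving out each mouse in turn gave 219 to 712 higher and 160 to 523 lower genes, 77 to 136 and 46 to 114 of them past a log2 fold change of 1 in size, 16 to 32 genes of the steroid lists and 2 to 5 of the 9 genes; the fewest of the 9 came without vehicle-treated mouse 2 or 3. Same-numbered mice did not deviate together from their group means (correlations -0.0144 to 0.0849), so the numbers were not taken as pairs. With the replicate number as a block, 411 genes were higher and 416 lower, 3 of the 9 genes were called in place of 5, and the best vehicle match of ISOGK-treated mice 1 to 4 was mouse 2, 4, 2 and 4. The cause of these shifts was not tested. No unique molecular identifiers are described, so precision from counts covers counting error only. *Hsd3b1*, *Hsd3b6* and *Cyp11a1* had too few counts to be tested.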
